A study of Mus musculus with 51 samples.

Results

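Slc38a4 encodes a transporter of small neutral amino acids that is best known from placenta and liver. It is an imprinted gene, expressed mainly from the copy inherited from the father. The gene was chosen by measured values, namely its parental ratios in the wild-type crosses and in embryos without oocyte DNA methylation, where its paternal bias in active chromatin stayed in part, so those ratios are given below as a description. Counts of peaks called by parent stand only beside the share of all peaks called, and nothing is read from them. Its members are all peaks and 1 kb windows that overlap chr15:96980000-97150000 (GRCm38). This gave 32 of the 150793 peaks in 6 tables of reads per parental allele, and 170 of 2462755 windows. H3K4me3 contributed 9 peaks in epiblast and 11 in ExE, H3K36me3 3 in each tissue, and H3K27me3 6 in ExE and 0 of 13189 in epiblast. Peaks with 20 reads or more on an allele in some wild-type library are called informative, which 25 of the 32 were.

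The libraries were native ChIP-seq of mouse embryos on embryonic day 6.5, dissected into epiblast (Epi), which forms the embryo proper, and extra-embryonic ectoderm (ExE), which contributes to the placenta. Each library came from a pool of 4 epiblasts or 8 ExE. All embryos were hybrids of a C57BL6/Babr (B6) and a CAST/EiJ (CAST) parent, named with the mother first: B6/CAST and CAST/B6 were wild type, and the matDKO/CAST embryos had a CAST father and a mother of B6/129 background. Those mothers carried floxed Dnmt3a and Dnmt3b, the enzymes that methylate DNA de novo, and a Zp3-cre transgene that is active in growing oocytes, so the egg lacked both enzymes while the embryo kept its paternal copies. In matDKO/CAST, reads carrying 129 variants were added to the maternal allele alone, and B6/CAST and matDKO/CAST share the strain of the father. Every ChIP group had 2 libraries, and the inputs numbered 15. Among them, 1 of the matDKO/CAST inputs in each tissue carries the strain label of B6/CAST and was kept in matDKO/CAST by its title. H3K36me3 over Dnmt3b gave paternal shares of 43.2 to 56.7% in matDKO/CAST and 45.5 to 52.2% in the wild type, so reads over the whole gene do not show the deletion, and its exact place is not given in the sources used here. Depth was 4.01 to 17.9 M reads per H3K4me3 library, 3.68 to 22.9 per H3K27me3, 2.09 to 12.6 per H3K36me3 and 7.17 to 90.6 per input.

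At most imprinted genes the oocyte methylates a promoter or control region, and that methylation keeps the maternal copy silent after fertilization. At a small set of genes expressed from the father in extra-embryonic tissue, maternal repression follows H3K27me3 laid down in the oocyte, which is called non-canonical imprinting. H3K4me3 marks active promoters, H3K36me3 covers the body of transcribed genes, and H3K27me3 marks silent promoters and domains.

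The gene lies on the minus strand at chr15:96994820-97055956 (ENSMUSG00000022464.14), with its first transcript starting at 97055956. Other annotated transcripts start at 97050087, 97031211, 97020322 and 97019951, that is, 5.87 to 36 kb inside the gene. No other annotated gene lies in the region. Distances below run from the first start to the centre of a peak. Stretches of 300 bases are printed because the results turn on them: the promoter, the stretch of the promoter peak with the most CpG sites, and the middle of the upstream H3K4me3 peak with the most reads. Bases are lower case with each CpG site, the pair that DNMT3A and DNMT3B methylate, in capitals. The sequences are from RefSeq on GRCm38.p6 and run 5′ to 3′ on the strand named.

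Slc38a4 promoter, chr15:97055907-97056206, minus strand: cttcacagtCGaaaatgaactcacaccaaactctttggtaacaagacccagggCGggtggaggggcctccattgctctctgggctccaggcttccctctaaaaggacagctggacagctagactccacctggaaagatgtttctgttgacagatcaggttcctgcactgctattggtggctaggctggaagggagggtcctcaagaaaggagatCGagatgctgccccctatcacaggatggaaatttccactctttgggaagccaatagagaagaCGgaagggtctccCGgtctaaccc
CpG-rich stretch in the first promoter peak, chr15:97054442-97054741, minus strand: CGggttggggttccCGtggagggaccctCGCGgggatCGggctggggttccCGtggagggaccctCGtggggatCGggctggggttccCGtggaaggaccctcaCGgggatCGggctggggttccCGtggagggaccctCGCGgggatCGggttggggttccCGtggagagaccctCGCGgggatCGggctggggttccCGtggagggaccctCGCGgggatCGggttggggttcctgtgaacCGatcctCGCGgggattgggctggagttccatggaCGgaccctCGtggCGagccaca
Upstream H3K4me3 peak, chr15:97126351-97126650, plus strand: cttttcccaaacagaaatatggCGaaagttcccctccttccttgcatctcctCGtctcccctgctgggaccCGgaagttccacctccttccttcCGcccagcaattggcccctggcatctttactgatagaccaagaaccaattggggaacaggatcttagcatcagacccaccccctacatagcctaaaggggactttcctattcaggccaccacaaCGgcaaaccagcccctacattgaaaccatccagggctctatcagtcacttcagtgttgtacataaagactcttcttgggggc

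The promoter itself held 5 CpG sites in these 300 bases, against a median of 7 over 32851 promoters of the same length, and 62% of those held at least 5. It contained the letters CCAAT on either strand, as did 37.4% of promoters, and not TATAAA, which 13.6% held on either strand. The CpG-rich stretch lay 1.37 kb inside the gene in an intron and held 29 CpG sites. It fell within both the H3K4me3 and the H3K27me3 promoter peaks. The upstream stretch, 70.5 kb before the start and between genes, held 5 CpG sites.

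**Figure D1:**
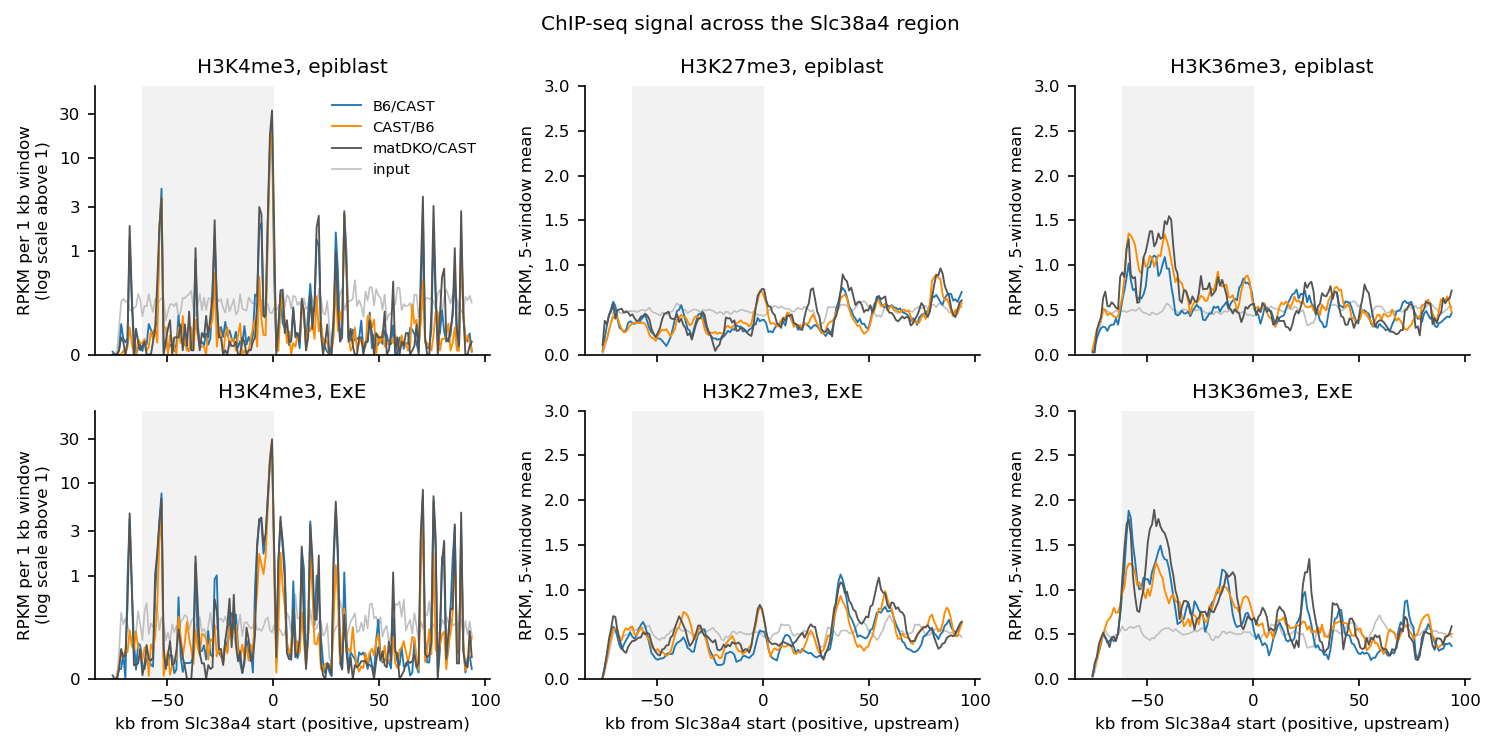
Mean signal of both libraries in RPKM in 1 kb windows against the distance in kb from the Slc38a4 start, for 3 marks in epiblast and ExE, with the crosses as lines, the input for comparison and the gene body shaded. H3K4me3 is on an axis that is logarithmic above 1, and H3K27me3 and H3K36me3 are running means of 5 windows. The window at the start rose to between 19 and 36.8 RPKM of H3K4me3 in single libraries of every cross and tissue, and H3K36me3 was spread over the gene body.

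H3K4me3 at the promoter was carried mostly by the paternal allele in wild-type embryos of both tissues and both crosses, and a larger maternal part appeared in matDKO/CAST. Shares below are paternal reads as a percentage of the reads assigned to a parent, and levels per allele are in RPM, that is, reads scaled to 1 M reads assigned to an allele in autosomal peaks of the same library. Each 95% Wilson interval covers counting error only, since reads without molecular identifiers are not independent molecules.

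In epiblast the promoter peak spanned chr15:97047500-97057000. The paternal share was 91.3% (interval 87.6 to 94.0) and 91.2% (86.8 to 94.3) in B6/CAST. It was 99.1% (96.9 to 99.8) in 1 CAST/B6 library, and the other held 0 maternal reads of 53, which allows a maternal share of up to 5.66%. In matDKO/CAST it was 72.7% (67.5 to 77.3) and 64.5% (54.4 to 73.5). Every matDKO/CAST library thus lay below every wild-type library and above an equal share. The change was on the maternal allele: its level was 4.29 and 4.26 RPM in B6/CAST, 0.389 and 0 in CAST/B6, and 20.5 and 29.5 in matDKO/CAST, a mean 5.84 times that of B6/CAST. The paternal level was 45.2 and 44.3 RPM in B6/CAST, against 54.5 and 53.6 in matDKO/CAST, 1.21 times as high. The fitted log2 ratio of paternal to maternal was 3.44 ± 0.22 (SE, n = 2) in B6/CAST and 6.91 ± 0.48 in CAST/B6, beside 1.35 ± 0.19 in matDKO/CAST. The CAST/B6 ratio rests on 2 maternal reads in 1 library and 0 in the other. It ran from 6.68 to 10.2 with single libraries left out, so its SE understates the uncertainty.

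In ExE the promoter peak was wider, chr15:97046500-97062000. The paternal share was 95.8% (93.98 to 97.11) and 95.0% (92.3 to 96.8) in B6/CAST, 92.2% (89.2 to 94.4) and 95.0% (91.8 to 96.9) in CAST/B6, and 86.2% (82.3 to 89.3) and 79.4% (74.7 to 83.4) in matDKO/CAST. Both matDKO/CAST libraries were again the lowest, while the intervals of all 4 wild-type libraries overlapped. The maternal level was 3.96 and 4.03 RPM in B6/CAST, 6.94 and 3.53 in CAST/B6, and 13.7 and 24.8 in matDKO/CAST, a mean 4.82 times that of B6/CAST. The paternal levels of 85.4 and 95.5 RPM in matDKO/CAST overlapped those of B6/CAST, 90.6 and 76.0. Fitted log2 ratios of matDKO/CAST minus B6/CAST were -2.10 ± 0.32 in epiblast and -2.04 ± 0.34 in ExE.

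**Figure D2:**
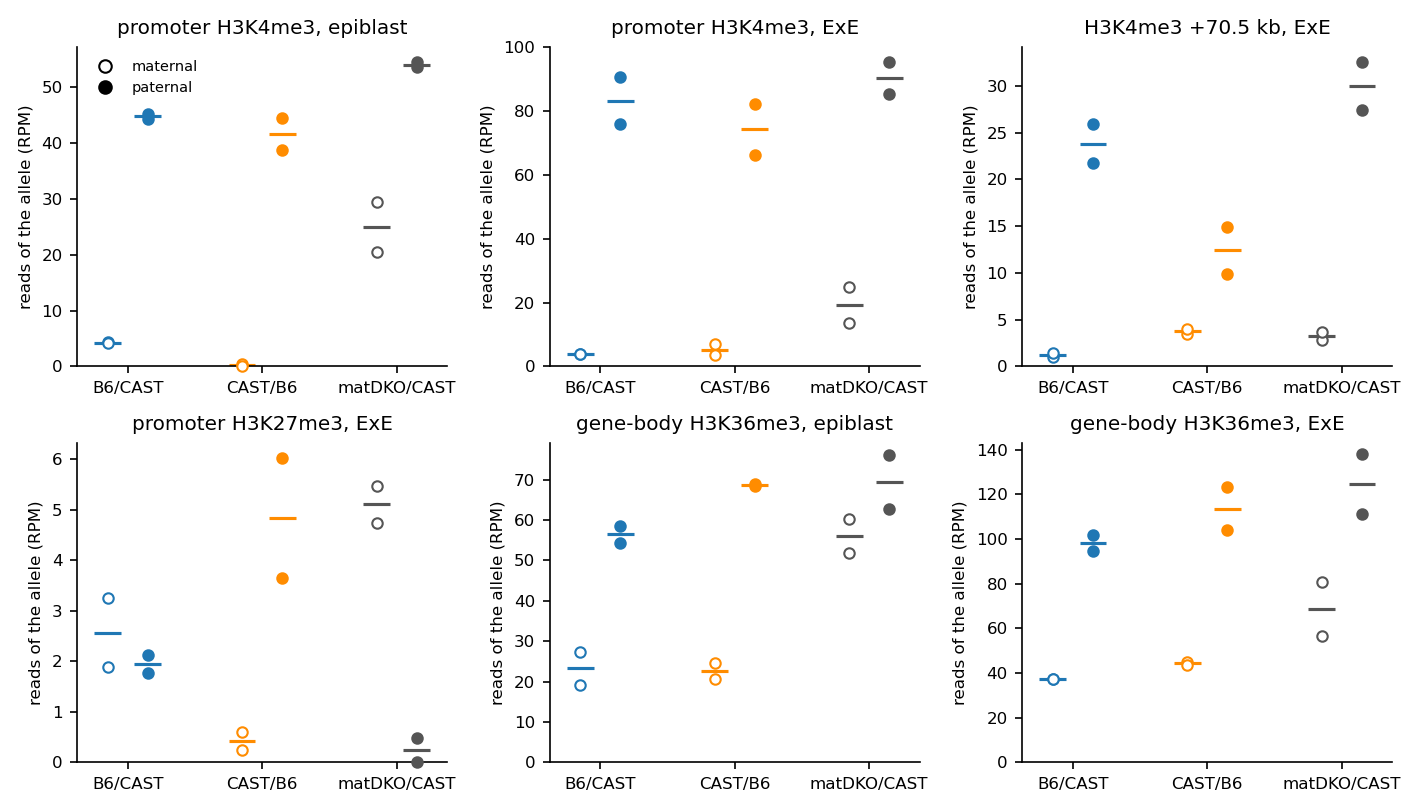
Reads (RPM) assigned to the maternal (open) and paternal (filled) allele in each library, with short lines for the mean of both libraries and 1 panel per peak: promoter H3K4me3 in epiblast and ExE, H3K4me3 at 70.5 kb upstream in ExE, promoter H3K27me3 in ExE, and gene-body H3K36me3 in epiblast and ExE. Maternal promoter H3K4me3 in epiblast reached 20.5 and 29.5 in matDKO/CAST and at most 4.29 in the wild type, while the upstream peak stayed below 5 on the maternal allele of every library.

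Upstream of the gene, some of the ExE H3K4me3 peaks had a paternal bias of their own. The peak 33.5 kb upstream, below the informative limit, did not. Its paternal share was 21.1% and 18.2% in B6/CAST, and 42.9% of 7 reads and 82.4% of 17 reads in CAST/B6. Of the 9 informative ExE peaks, edgeR's quasi-likelihood test called 4 with the paternal allele higher in both wild-type crosses, against 0.319% of 23211 informative peaks called for the same parent in both. All 4 were also called paternal in matDKO/CAST (0.978% of all). They were the promoter and the peaks 70.5, 75.3 and 84.3 kb upstream. This bias chose the gene. Without the first CAST/B6 ExE library the count of calls in both wild-type crosses was 1 and not 4. In epiblast 1 of 8 informative H3K4me3 peaks, the promoter, was called in this way (0.108% of all), and it was called paternal in matDKO/CAST too (2.64% of all).

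The largest of the upstream peaks, chr15:97125000-97128000 in ExE, differed from the promoter in how matDKO/CAST ranked. Its paternal share was 95.5% and 94.6% in B6/CAST, 81.2% and 71.2% in CAST/B6, and 90.6% and 89.8% in matDKO/CAST. The matDKO/CAST libraries therefore lay between those of the wild-type crosses, not below them. On the maternal allele the level was 1.03 and 1.49 RPM in B6/CAST, 3.47 and 4.00 in CAST/B6, and 2.85 and 3.70 in matDKO/CAST, from 7 to 17 maternal reads a library. The mean of matDKO/CAST was 2.61 times that of B6/CAST, and its values overlapped those of CAST/B6.

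At 75.3 kb upstream, chr15:97129500-97133000, the paternal share was 96.8% and 98.6% in B6/CAST, 28 of 28 reads and 83.3% of 18 reads in CAST/B6, and 97.3% and 93.8% in matDKO/CAST. Each library held at most 3 maternal reads there. At 84.3 kb upstream, chr15:97135000-97145500, it was 78.1% and 77.1% in B6/CAST, 72.2% and 81.8% in CAST/B6, and 67.1% and 76.1% in matDKO/CAST. At 75.3 kb the crosses overlapped. At 84.3 kb the CAST/B6 libraries overlapped those of both other crosses, and both matDKO/CAST libraries lay below both of B6/CAST.

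Epiblast showed the same upstream positions with few reads. At chr15:97125500-97127000 the paternal share was 92.5% and 84.6% in B6/CAST, against 87.5% and 75.0% in matDKO/CAST, while the CAST/B6 libraries held 1 and 7 reads. At chr15:97130500-97132500, which was below the informative limit, the B6/CAST libraries gave 90.5% and 19 of 19 reads, and the CAST/B6 libraries held 4 and 1 reads. No parental statement can be made for CAST/B6 at this depth.

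**Figure D3:**
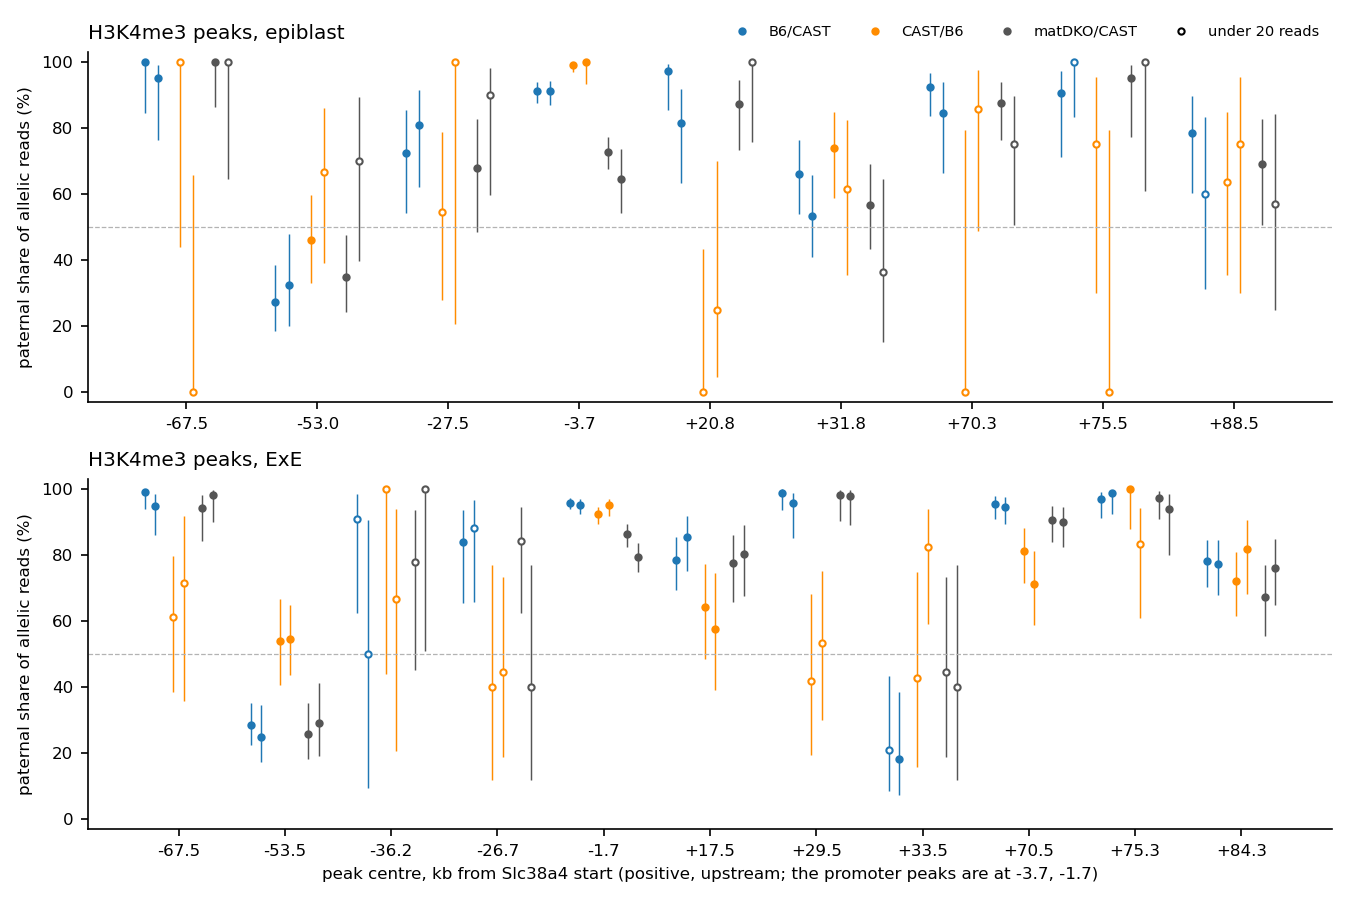
Paternal share in percent of allele-assigned reads, with 95% Wilson intervals, in each library for every H3K4me3 peak of the region in epiblast and ExE, ordered by position, with open symbols for libraries under 20 reads. At the promoter the matDKO/CAST libraries lie lowest, from 64.5 to 72.7% in epiblast and from 79.4 to 86.2% in ExE, and at several other peaks B6/CAST and matDKO/CAST lie together and CAST/B6 apart.

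Several of the remaining peaks had different parental ratios in the wild-type crosses. The parental term is printed beside the strain term where the peaks are described. Strain was compared in an edgeR quasi-likelihood fit of the 4 wild-type libraries of a mark and tissue with terms for cross, parent and strain. The strain term is the difference between the crosses in the same parental ratios, so for H3K27me3 and for the H3K4me3 peaks called by parent, whose ratios by cross bore on the choice of the gene, it is given as a description with no p, and nothing is read from its calls there. In ExE 6 of 9 informative H3K4me3 peaks passed the threshold, 5 with CAST higher (9.34% of all informative peaks) and 1 with B6 higher (9.65%). The former include the peak at 70.5 kb, which was called by parent, and are 4 without it. They also include the peaks 29.5 kb upstream, 67.5 kb downstream and 26.7 kb inside the gene. Those peaks reached the informative limit only on the CAST allele in B6/CAST, so nothing is read from their calls. The father is CAST in both B6/CAST and matDKO/CAST, so a CAST and a paternal bias cannot be told apart within those crosses.

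The largest strain term among the ExE H3K4me3 peaks was at a peak 29.5 kb upstream, chr15:97084000-97087000. Its paternal share was 98.8% and 95.6% in B6/CAST, 41.7% of 12 reads and 53.3% of 15 reads in CAST/B6, and 98.2% and 97.9% in matDKO/CAST. The CAST allele had 12.3 and 9.12 RPM when it came from the father in B6/CAST, and 1.52 and 1.65 when it came from the mother in CAST/B6. The B6 allele had 0.147 and 0.424 RPM from the mother and 1.08 and 1.88 from the father. The alleles were thus near even in CAST/B6, and the higher CAST level was that of B6/CAST. The log2 difference of CAST to B6 was 2.74 ± 0.43, and the parental term of the same fit was 2.56 ± 0.44. No p is given, since the peak reached 20 reads only on the CAST allele in B6/CAST. Annotated repeats covered 66.0% of this peak, against a median of 19.5% over 1697 ExE H3K4me3 peaks of chromosome 15, of which 6.78% were over 50% repeats.

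A peak 67.5 kb downstream of the start, past the end of the gene at chr15:96987000-96990000, also had its highest shares with a CAST father. Its paternal share was 98.9% and 94.9% in B6/CAST, 61.1% of 18 reads and 71.4% of 7 reads in CAST/B6, and 94.1% and 98.1% in matDKO/CAST. It was above an equal share in all 4 wild-type libraries. CAST was higher by 2.18 ± 0.47 on the log2 scale, and by 1.91 without the first CAST/B6 ExE library. This is given with no p, since the peak reached the informative limit only on the CAST allele in B6/CAST.

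The single peak with B6 higher lay in an intron, 53.5 kb from the start at chr15:97000500-97004500. Its paternal share was 28.4% and 25.0% in B6/CAST, 53.9% and 54.4% in CAST/B6, and 25.8% and 29.0% in matDKO/CAST. The mother supplied the B6 allele in the first and last of these crosses. The parental term of the fit was -0.60 ± 0.19, and the log2 difference of CAST to B6 was -0.76 ± 0.19 (edgeR adjusted p = 0.00205). It kept its call whichever library was left out.

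At the upstream peak at 70.5 kb, 1 of the 5 counted with CAST higher, the log2 difference of CAST to B6 was 1.32 ± 0.24. At 26.7 kb inside the gene it was 1.53 ± 0.53, given with no p. That peak reached the informative limit only on the CAST allele in 1 B6/CAST library. The peak 17.5 kb upstream (0.79 ± 0.25, edgeR adjusted p = 0.0184) lost its call in 3 of the 6 leave-one-out fits over libraries, and with DESeq2 (adjusted p = 0.148). The peak at 17.5 kb had paternal shares of 64.1% and 57.7% in CAST/B6, so it too was above an equal share in every wild-type library. For the promoter in ExE the strain difference was 0.35 ± 0.17.

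At the epiblast promoter, the maternal B6 allele of B6/CAST held 46 reads in total and the maternal CAST allele of CAST/B6 held 2. The log2 difference of CAST to B6 was -1.76 ± 0.35 and, without the CAST/B6 library labelled replicate 2, -3.46. Over all informative epiblast H3K4me3 peaks edgeR called 3.51% with B6 higher. Another epiblast peak, 20.8 kb upstream, was higher on CAST by 3.00 ± 0.84 (edgeR adjusted p = 0.0290, against 2.58% of peaks called with CAST higher), from 5 and 4 reads in CAST/B6, and lost its call in 3 of 6 fits without a library.

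H3K27me3 near the promoter followed no single parent. The ExE peak at chr15:97053000-97057000 covers the start and the CpG-rich stretch printed above, and held 33.0 CpG sites per kb, against a median of 10.2 over 958 ExE H3K27me3 peaks of chromosome 15. In B6/CAST the libraries held 8 maternal and 9 paternal reads, and 11 and 6. In CAST/B6 they held 4 maternal and 24 paternal reads, and 1 and 24. In matDKO/CAST they held 15 maternal and 0 paternal reads, which allows a paternal share of up to 20%, and 10 and 1.

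The allele with more H3K27me3 was thus the paternal B6 copy in CAST/B6 and the maternal B6/129 copy in matDKO/CAST. In B6/CAST the reads were near balance, with 17 in each library. The authors called this peak in CAST/B6 and not in B6/CAST. Between the wild-type crosses the log2 difference of CAST to B6 was -1.71 ± 0.39, and ranged from -2.33 to -1.39 without each library. Over all informative ExE H3K27me3 peaks edgeR called 11.5% with B6 higher and 11.8% with CAST higher. No allele column of B6/CAST held more than 11 reads, so the peak leaves the test when 20 reads are required in each wild-type cross, as does the H3K4me3 peak 29.5 kb upstream. Of the 5 informative H3K27me3 peaks 0 were called for the same parent in both crosses by edgeR (1.35% of all informative peaks were), and 0 had an unadjusted p under 0.05 in each.

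The total H3K27me3 there lay above the inputs of the same cross. Its mean was 0.528 and 0.637 RPKM in B6/CAST, with inputs of 0.424 and 0.471. In CAST/B6 it was 0.895 and 0.917 RPKM, with inputs of 0.665 and 0.787. In matDKO/CAST it was 0.919 and 0.873 RPKM, with inputs of 0.302 and 0.423, of which the former is the input labelled with the strains of B6/CAST. The CAST/B6 inputs, 0.665 and 0.787 RPKM, were the highest of the ExE inputs, and their part in the allelic difference was not tested.

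Of the other H3K27me3 peaks, chr15:97014000-97022500 inside the gene had paternal shares of 15.4% and 23.1% in B6/CAST, 46.2% and 42.1% in CAST/B6, and 8.82% and 35.3% in matDKO/CAST. The maternal allele was higher in all 6 of these libraries, and its strain difference was -0.81 ± 0.28. At chr15:97108500-97117000, 56.8 kb upstream, the share was 44.1 to 60.9% in the wild type and 20.4% and 35.2% in matDKO/CAST. Both of these peaks were called by the authors in CAST/B6 and not in B6/CAST. At chr15:97089500-97098000 and chr15:97133000-97156500 every wild-type share lay between 47.6 and 64.1%.

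H3K36me3 over the gene body was paternal in both tissues, as the promoter was, and less so. In epiblast the peak chr15:96994500-97024500 gave 75.4% and 66.4% in B6/CAST, 73.8% and 76.8% in CAST/B6, and 59.5% and 51.0% in matDKO/CAST. The maternal level was 19.1 and 27.4 RPM in B6/CAST, against 52.0 and 60.2 in matDKO/CAST, 2.41 times as high, with the libraries apart. The 5′ peak chr15:97034500-97056000 gave 60.6 to 74.1% in the wild type and 30.8% of 13 reads and 48.9% of 45 reads in matDKO/CAST. In epiblast 1 of 2 informative H3K36me3 peaks was called paternal in both wild-type crosses by edgeR (0.0632% of all were called for the same parent), and it was not called paternal in matDKO/CAST (0.153% of all were). Without the second B6/CAST library that count was 0.

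In ExE a single H3K36me3 peak covered the gene, chr15:96984000-97055000. Its paternal share was 73.1% and 71.8% in B6/CAST, 73.2% and 70.5% in CAST/B6, and 66.3% and 63.1% in matDKO/CAST. All wild-type libraries lay above both matDKO/CAST libraries. The maternal level was 37.5 and 37.2 RPM in B6/CAST, against 56.4 and 80.6 in matDKO/CAST, 1.84 times as high. The peak was called in both wild-type crosses (0.251% of all) and in matDKO/CAST (0.276% of all called paternal). The fitted log2 ratio was 1.47 ± 0.15, 1.30 ± 0.14 and 0.99 ± 0.21 in the order B6/CAST, CAST/B6, matDKO/CAST, and 1.23 ± 0.23, 1.52 ± 0.19 and 0.34 ± 0.29 in epiblast. No H3K36me3 peak of the region was called for strain by edgeR, of 2 informative in epiblast and 1 in ExE, and 0 had an unadjusted p under 0.05. Over all informative H3K36me3 peaks 1.99% were called with CAST higher and 2.46% with B6 higher in epiblast, and 3.85% and 4.37% in ExE.

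Total signal, which counts every aligned read whatever its allele, was compared between tissues with limma on log2 of RPKM plus 0.5 over peaks merged from both tissues. In bulk chromatin, fewer marked cells and less mark per cell cannot be told apart. In the wild type 7 of the 10 merged H3K4me3 peaks were higher in ExE (29.4% of all merged peaks were) and 0 were lower (19.5% of all). The median difference of all merged H3K4me3 peaks was 0.08.

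At 70.5 kb upstream H3K4me3 was 1.44 and 0.750 RPKM in B6/CAST epiblast, 0.152 and 0.598 in CAST/B6 epiblast, 3.29 and 3.36 in B6/CAST ExE and 1.96 and 1.80 in CAST/B6 ExE. All ExE libraries were above all epiblast libraries, and the CAST/B6 epiblast values lay within or below the range of the inputs. ExE was higher by 1.39 ± 0.18 on the log2 scale (limma adjusted p = 1.38e-07). The peaks at 75.3 kb (1.07 ± 0.19, limma adjusted p = 2.11e-05) and 84.3 kb (0.80 ± 0.19, limma adjusted p = 0.00111) were higher too. At 84.3 kb the merged peak is the ExE peak, of which the epiblast peak, chr15:97143500-97145500, is only a part. In matDKO/CAST 6 of 10 were higher in ExE (11.3% of all) and 0 lower (17.8% of all). The peak 70.5 kb upstream rose by 1.04 ± 0.26 (limma adjusted p = 0.00237) and the peak at 75.3 kb by 1.04 ± 0.26 (limma adjusted p = 0.00305).

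The promoter was higher in ExE by 0.57 ± 0.16 in the wild type (limma adjusted p = 0.00382), and the difference in matDKO/CAST was 0.29 ± 0.23 (limma adjusted p = 0.359). The merged peak tested is the wider ExE peak, so it includes a flank that was called in ExE and not in epiblast. The window that holds the start did not separate the tissues. It had 26.5, 19, 31.1 and 20.6 RPKM in the wild-type epiblast libraries and 24.1, 20.4, 27.6 and 31.6 in those of ExE. In the 5 windows of the flank from 97057001 to 97062000, just upstream of the epiblast peak and a part of the ExE peak, the mean was 0.0759 to 0.493 RPKM in wild-type epiblast and 0.774 to 2.02 in wild-type ExE. In matDKO/CAST the flank had 0.233 and 0.449 RPKM in epiblast and 1.72 and 1.88 in ExE, and inputs had 0.280 to 0.592. The flank windows were chosen after their values were seen and are described without a test.

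**Figure D4:**
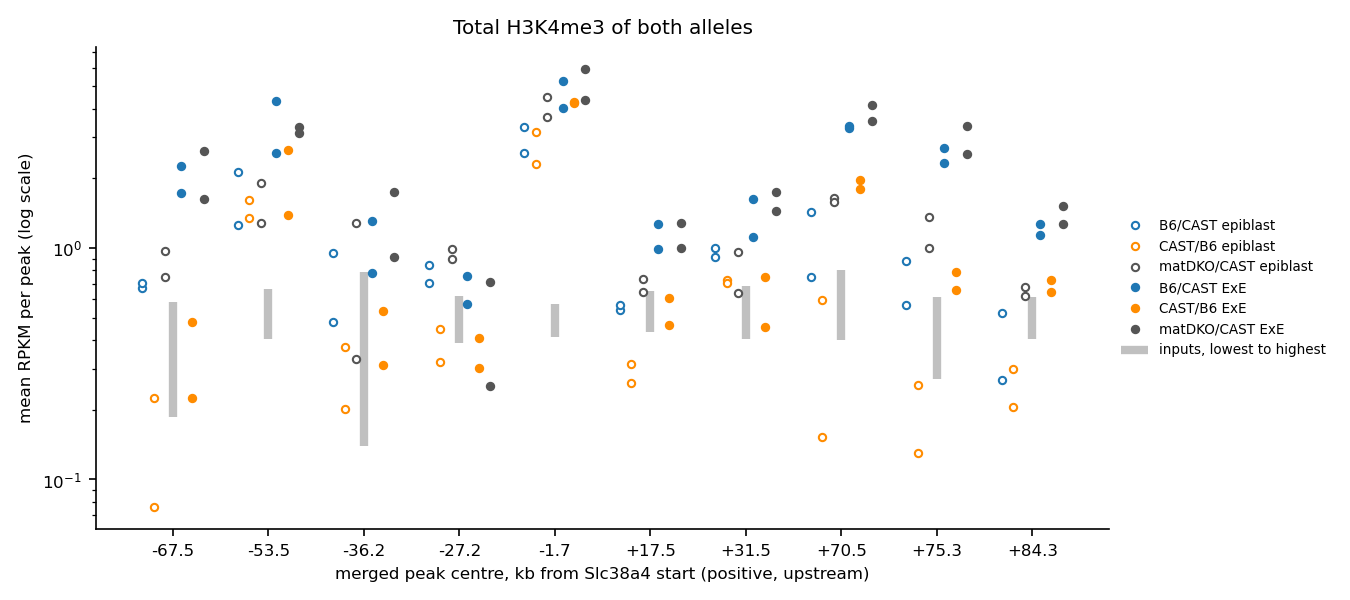
Total H3K4me3 in RPKM (log scale) of each library at every merged H3K4me3 peak of the region, by tissue and cross, with inputs in grey. The promoter stands at 2.31 to 5.93 RPKM in all libraries, and at the upstream peaks at 70.5 and 75.3 kb the ExE libraries of each cross lie above the epiblast libraries of that cross.

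Between the reciprocal crosses, 2 of 10 merged H3K4me3 peaks were lower in CAST/B6 than in B6/CAST in ExE (6.11% of all), against a median of all peaks of -0.38. These were 67.5 kb downstream, with 2.26 and 1.73 RPKM in B6/CAST and 0.479 and 0.224 in CAST/B6 (log2 -1.56 ± 0.28), and 75.3 kb upstream, with 2.71 and 2.34 against 0.786 and 0.661 RPKM (-1.30 ± 0.26, limma adjusted p = 0.00801). The authors called the peak 67.5 kb downstream in B6/CAST and not in CAST/B6. It thus entered through the cross where it was higher, and no p is given for it. The call at 75.3 kb was lost without the first B6/CAST ExE library and without the first CAST/B6 ExE library. Since CAST/B6 differs from B6/CAST in the strain of each parent, parent and strain cannot be told apart in total signal. In epiblast 0 of 10 passed in limma (0.296% of all were lower), and 3 had an unadjusted p under 0.05. The differences ran from -0.88 to -0.09, against a median of all peaks of -0.26. An edgeR fit on read counts recovered from the RPKM called 3 lower, against a median of -0.46 in that fit. Of the 6 H3K27me3 and 3 H3K36me3 merged peaks 0 passed limma between the crosses in epiblast (0.111% and 0.0165% of all peaks of these marks did, in either direction) or ExE (0.00427% and 0.0454%), with 3 and 2 unadjusted p under 0.05 over both tissues, and edgeR on recovered reads called 1 H3K36me3 peak lower in CAST/B6 epiblast.

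The tissue differences of the other marks were smaller. For H3K27me3 2 of 6 merged peaks were higher in ExE (45.6% of all), at 37.8 kb upstream by 0.35 ± 0.09 and at 56.8 kb by 0.28 ± 0.09, and the edgeR fit called 0. All 6 were called in ExE and 0 in epiblast, so they entered through ExE. No p is given, and nothing is read from their calls. These differences are near the median of all H3K27me3 peaks, 0.22. The H3K36me3 of the gene body was 0.584 to 0.828 RPKM in the wild-type epiblast and 0.854 to 0.968 in the wild-type ExE, higher by 0.21 ± 0.08 (limma adjusted p = 0.0450), against a median of -0.14. With an upstream peak at 73.5 kb (0.44 ± 0.11) this made 2 of 3 (22.8% of all), with 0 called after the input was subtracted. That upstream peak was called by the authors only in B6/CAST ExE, so it entered through ExE and no p is given. The gene body lost its call in 8 of 12 fits without a library.

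The dissection was looked at through H3K4me3 at start sites of marker genes. Of 5 epiblast genes with a peak, 4 were lower in wild-type ExE (19.5% of all peaks were), and their summed level ran from 43.9 to 61.4 RPKM in epiblast and 10.5 to 22.6 in ExE. Of 7 ExE genes 4 were higher (29.4% of all peaks were) and 1, Esrrb, was lower. Of 6 genes of the visceral endoderm, the layer that encloses both tissues, 5 were higher in ExE, with sums of 9.36 to 18.5 RPKM in epiblast and 15 to 27.9 in ExE. Of the 2 genes of giant and ectoplacental cone cells with a peak, Hand1 was higher by 0.63 in wild-type ExE (limma adjusted p = 0.00281), and Ascl2 differed by -0.11 in the wild type (limma adjusted p = 0.601) and was lower in matDKO/CAST ExE, with -1.66 (limma adjusted p = 6.94e-07). Both decidua genes with a peak were lower in ExE, and Ptprc and Hba-a1, which mark blood, had no peak. The part of visceral endoderm in the tissue differences at Slc38a4 was not tested.

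Within its family, Slc38a4 was the single gene of 10 called higher in wild-type ExE by limma, a share below the 29.4% of all peaks. Its merged peak included the flank called only in ExE, and the window that holds the start did not separate the tissues. Of the 11 Slc38 genes, which move glutamine and related amino acids across membranes, 10 had an autosomal H3K4me3 peak at a start site. In wild-type embryos 3 were lower in ExE (19.5% of all peaks were): Slc38a1 by -0.42 ± 0.16 (limma adjusted p = 0.0315), Slc38a3 by -0.45 ± 0.15 (limma adjusted p = 0.0164) and Slc38a11 by -0.71 ± 0.16 (limma adjusted p = 5.39e-04). The family median was -0.05 beside 0.08 for all peaks. The edgeR fit on recovered reads called 3 of the 10 higher. Slc38a1 and Slc38a2 are the neighbours of Slc38a4 on chromosome 15, and Slc38a2, a widely expressed transporter of the same kind, gave 0.04 ± 0.16 (limma adjusted p = 0.877). In matDKO/CAST Slc38a9, the lysosomal arginine sensor, was higher by 0.68 (limma adjusted p = 0.0358) and Slc38a11 lower, with -0.97 (limma adjusted p = 0.00146), 1 of 10 in each direction beside 11.3% and 17.8% of all peaks.

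Values of other imprinted genes from the same libraries are set beside those of Slc38a4 as a description. Peg3, an imprinted zinc finger gene, had paternal H3K4me3 shares of 92.9 to 99.8% in the wild type, and of 49.3 to 56.4% in epiblast and 51.5 to 52.5% in ExE in matDKO/CAST. Sfmbt2, a Polycomb gene with non-canonical imprinting, had 80.4 to 87.8% in wild-type ExE and 85.3 to 89.2% in matDKO/CAST ExE. Its ExE H3K27me3 was on the maternal allele, with paternal shares of 27 to 30.9% in the wild type and 23.6 to 29.9% in matDKO/CAST. The paternal H3K27me3 share of the Slc38a4 promoter was 52.9% and 35.3% in B6/CAST, 85.7% and 96% in CAST/B6, and 0% and 9.09% in matDKO/CAST. The H3K4me3 peak of Gab1 with the most reads had paternal shares of 44.8 to 51.7% in wild-type ExE. Its ExE H3K27me3 peak with the most reads had 49.2 to 50% in B6/CAST, 63.6 to 66.7% in CAST/B6 and 56.1 to 60.8% in matDKO/CAST.

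The peaks most like the Slc38a4 promoter were ranked by the Euclidean distance of their paternal shares over the 6 libraries of a tissue. In epiblast, among 11891 peaks with 20 reads in every library, they were those at Airn (21.8 percentage points), Inpp5f with Gm43580 (23.5), Mest (23.9), Kcnq1ot1 (24.3) and Peg13 (24.8). In matDKO/CAST their shares were 43.5 to 66.8%, beside 72.7 and 64.5% for Slc38a4.

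In ExE, among 15453 peaks, the nearest was chr8:80852500-80861000 inside Gab1, a signalling adaptor gene, at 8.69 percentage points, followed by Gm32885 (16.8), Sfmbt2 (23.0), Platr20 with Gm12569 (25.2) and a peak near Smoc1 (27.6). The Gab1 peak had 86.5 and 87.9% in matDKO/CAST. Gm32885, a long non-coding RNA gene, is the next gene upstream of Slc38a4, and its peak chr15:97162500-97168500 had 89.7 to 91.7% in the wild type and 89.1 and 93.6% in matDKO/CAST.

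At the edges of the region, the first H3K4me3 peak outside on the far side of the gene, chr15:96952500-96956000 in ExE, had paternal shares of 46.9 to 67.9% in the wild type. The first beyond the upstream edge, chr15:97157000-97159000, had 40.0 to 68.0% in the wild type and 77.8 and 71.4% in matDKO/CAST. Just inside, the outermost peaks were those at 67.5 kb downstream and 84.3 kb upstream, described above.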

How the data were processed

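Per the methods, with versions from the submitters' processing notes, the authors trimmed reads (Trim Galore 0.4.4), aligned them (Bowtie2 2.3.2) to GRCm38 with the B6 and CAST variants masked, and split them by parent with SNPsplit. For matDKO/CAST they added reads with 129 variants to the maternal allele. The deposited allelic tables hold raw read counts per peak and allele. Their peaks were called with chromstaR on both replicates of a cross together and merged per mark and tissue. The authors' window table holds RPKM of all aligned reads in 1 kb windows for 36 ChIP and 15 input libraries. All of its low values were whole multiples of 1 read within 0.1, so reads could be recovered.

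From the counts, paternal and maternal columns were compared by edgeR 4.0.16 with its quasi-likelihood test (TMM, two-sided, Benjamini-Hochberg adjustment over informative autosomal peaks, threshold 0.05), per cross, and jointly over the wild-type crosses for strain. From RPKM, limma 3.58.1 was run on log2 of the peak mean plus 0.5, with a trended prior and a mean per group. Both were tested on simulated data. The planned strain test is given without a p for H3K27me3 and the H3K4me3 peaks called by parent, whose ratios by cross bore on the choice of the gene. It is also given without a p for H3K4me3 peaks that reached the informative limit only on the CAST allele in B6/CAST. Inputs, of which 2 titled matDKO/CAST carry the strain label of B6/CAST, enter no test but the alternative with subtracted input. The genes set beside, the family and the marker lists follow a rule: all peaks of the region, the nearest outside, the Slc38 family, the peak with the most reads within 10 kb of Gab1, Sfmbt2 and Peg3, and the 5 peaks most like the promoter. The region and the lists were chosen with earlier results of these data known. Alternatives were other normalizations, DESeq2 1.42.0, other filters, other pseudocounts, subtracted input, pairing and leaving out each library. Labels do not say that replicates came from separate litters, so p-values measure the spread between these libraries. Genes are from GENCODE vM21, and the repeats and sequences from RefSeq. Other tools were R 4.3.3, Python 3.11.15, pandas 2.3.3, numpy 2.4.6, scipy 1.17.1 and matplotlib 3.10.9.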

Additional observations from a re-analysis of the deposited data

How the results depend on the processing

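The strain difference of the ExE H3K4me3 peak 53.5 kb inside the gene, and the higher ExE H3K4me3 70.5 kb upstream in both contrasts, kept direction and call in every alternative that kept the peak. The ExE H3K4me3 peak 29.5 kb upstream left the strain test when 20 reads were required in each wild-type cross. No result reversed. With 20 reads required in each wild-type cross, strain calls went from 6 to 3 for ExE H3K4me3, from 2 to 1 for epiblast H3K4me3 and from 2 to 1 for ExE H3K27me3 (11.5% and 11.8% of all were called with B6 and CAST higher). Nothing is read from strain calls of H3K27me3 or of H3K4me3 peaks called by parent, here or without single libraries. The same holds for H3K4me3 peaks that reached 20 reads only on the CAST allele in B6/CAST. With DESeq2 the strain calls of ExE H3K27me3 were 1 as well, and the parental call of epiblast H3K36me3 went from 1 to 0. For total signal, the H3K4me3 peaks lower in CAST/B6 went from 0 to 3 in epiblast with a pseudocount of 0.1, to 3 with edgeR and to 1 for peaks with a mean RPKM of at least 1, and in ExE from 2 to 5 with that filter and to 4 with input subtracted. With edgeR the H3K27me3 peaks higher in ExE went from 2 to 0 in the wild type and from 1 to 0 in matDKO/CAST, and the H3K36me3 peaks lower in CAST/B6 epiblast from 0 to 1. With input subtracted the H3K36me3 peaks higher in wild-type ExE went from 2 to 0, those lower in CAST/B6 ExE from 0 to 1, and the H3K27me3 peaks higher in CAST/B6 ExE from 0 to 1. Family genes called higher in ExE went to 3 in the wild type and 2 in matDKO/CAST with edgeR, and to 0 in matDKO/CAST with input subtracted. The cause was not tested.

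With each library left out in turn, strain calls ranged from 3 to 6 (ExE H3K4me3), 0 to 2 (epiblast H3K4me3) and 1 to 2 (ExE H3K27me3), and parental calls from 1 to 4 for ExE H3K4me3, with 1 without the first CAST/B6 library, and 0 to 1 for epiblast H3K36me3. Peaks higher in ExE ranged from 5 to 7 in the wild type and 2 to 6 in matDKO/CAST for H3K4me3, from 1 to 2 and 0 to 3 for H3K27me3, and from 1 to 2 in the wild type for H3K36me3, and H3K4me3 peaks lower in matDKO/CAST ExE from 0 to 1. Peaks lower in CAST/B6 ranged from 0 to 3 for ExE H3K4me3, 0 to 1 for epiblast H3K4me3 and 0 to 1 for ExE H3K36me3. Family calls ranged from 1 to 3 lower in the wild type, and 0 to 1 higher and 0 to 1 lower in matDKO/CAST.

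Maternal and paternal columns come from 1 library, and the library as a block changed 0 of 28 allelic results. Replicate numbers are shared between groups. Within H3K4me3, deviations of same-numbered libraries of different groups had correlations from -0.334 to 0.339 (median -0.0956), with 22.7% of pairs over 0.1. This check did not compare marks. The paper divided each chromatin sample between the antibodies, so libraries of different marks can share a pool of embryos. With the replicate number as a block, H3K27me3 peaks higher in matDKO/CAST ExE went from 1 to 4. Allelic depth was the limit at several sites: the CAST/B6 epiblast libraries held at most 7 reads at each of the peaks 70.3 and 75.5 kb upstream.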
